A study of Mus musculus with 2 samples.

Results

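Potassium and calcium channel subunits were followed in RNA sequencing of mouse mammary cells sorted with an endothelial gate. The genes were all those listed in either library with a symbol that begins with Kcn, leaving out Kcnj8, or with Cacn, which gave 95 of 17333 genes: 74 potassium and 21 calcium channel names. The rule used names only and no measured value. The group of interest was 1 library of Procr-positive cells, set against 1 library of Procr-negative cells. Procr encodes the endothelial protein C receptor. In both groups the cells were freshly isolated from the mammary gland of virgin adult mice aged 8 weeks, and both had been gated as lineage-negative and positive for CD105, CD31 and Sca1. The labels name no genotype, strain or treatment, and do not say whether a library pools several animals.

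Potassium channels let potassium leave or enter along its gradient and so set the resting membrane potential. In endothelium, calcium-activated and inwardly rectifying types are known to hyperpolarise the cell, a signal that spreads to the vessel wall. Voltage-gated calcium channels consist of a pore subunit with accessory beta and alpha2delta subunits, and they are known above all for calcium entry into excitable cells, including vascular smooth muscle. In epithelia, potassium channels are known for supporting the transport of salt and fluid.

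Unique reads numbered 9.22 M over 16247 genes for Procr-positive and 9.565 M over 16582 genes for Procr-negative cells. With 1 library per group there was no replicate check, so no p-value is given, and brackets hold exact conditional binomial 95% intervals, which cover counting error only. The sorting marker Procr was at 1321 RPKM in Procr-positive and 147 RPKM in Procr-negative cells, where RPKM is reads per kb of gene length and M reads. Neither library looked purely endothelial. All 15 pan-endothelial markers were called higher in Procr-positive cells, with a summed level of 3218 RPKM against 328 RPKM in Procr-negative cells. Of 15 epithelial markers, 13 were lower and none higher, with 921 RPKM in Procr-positive against 19585 RPKM in Procr-negative cells. Of 12 pericyte and smooth muscle markers, 11 were higher and none lower (1627 RPKM against 201 RPKM in Procr-negative cells), and fibroblast markers lower in 7 of 8 and higher in none (159 RPKM against 705 RPKM in Procr-negative cells). Leukocyte markers reached a sum of 78.6 RPKM for Procr-positive and 32.4 RPKM for Procr-negative cells, with 7 of 10 higher and none lower. Schwann cell and nerve markers summed to 12.1 RPKM in Procr-positive against 60.4 RPKM in Procr-negative cells, with 1 of 9 higher, 2 lower, Nefl without a read in the Procr-positive and Cdh19 without one in the Procr-negative library. Of 7 skeletal muscle markers, Myh4 was listed in neither library, Myog had no read in the Procr-positive library, Ckm and Myh1 had none in the Procr-negative library, and the sums were 0.644 RPKM in Procr-positive and 0.718 RPKM in Procr-negative cells. In such bulk samples fewer cells of a type and less RNA per cell cannot be told apart. The part of these cell type differences in the channel results below was not tested.

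Channel genes differed in both directions, and a different gene led in each library. A gene was called from a 2-fold difference on the log2(RPKM + 1) scale, which understates differences of low genes. Of the 95 members, 17 (17.9%) were higher in the Procr-positive library, beside 9.48% of all 17333 listed genes. Another 9 members (9.47%) were lower, beside 17.1% of all genes. The remaining 69 passed neither threshold, and 63 of them stayed under 1 RPKM in both libraries, where this scale could not call them. Of all 17333 genes 4824 were that low, a smaller part than of the members. Shares over listed genes, here and for the subfamilies below, therefore also depend on how many genes were too low to call. Among the 32 members with at least 1 RPKM in a library, 17 were higher and 9 lower. Of the 12509 such genes in all, 13.1% were higher and 23.7% lower. Where a gene needed 1 RPKM in a library and a whole counting interval past 2-fold, 15 members were higher and 9 lower, beside 8.84% and 14.5% of all genes. Kcne3 was among those that dropped out under that rule. Below 1 RPKM the interval also lay past 2-fold for 2 higher members, Cacna1e and Kcnmb1, and 2 lower ones, Kcnma1 and Kcnf1.

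**Figure D1:**
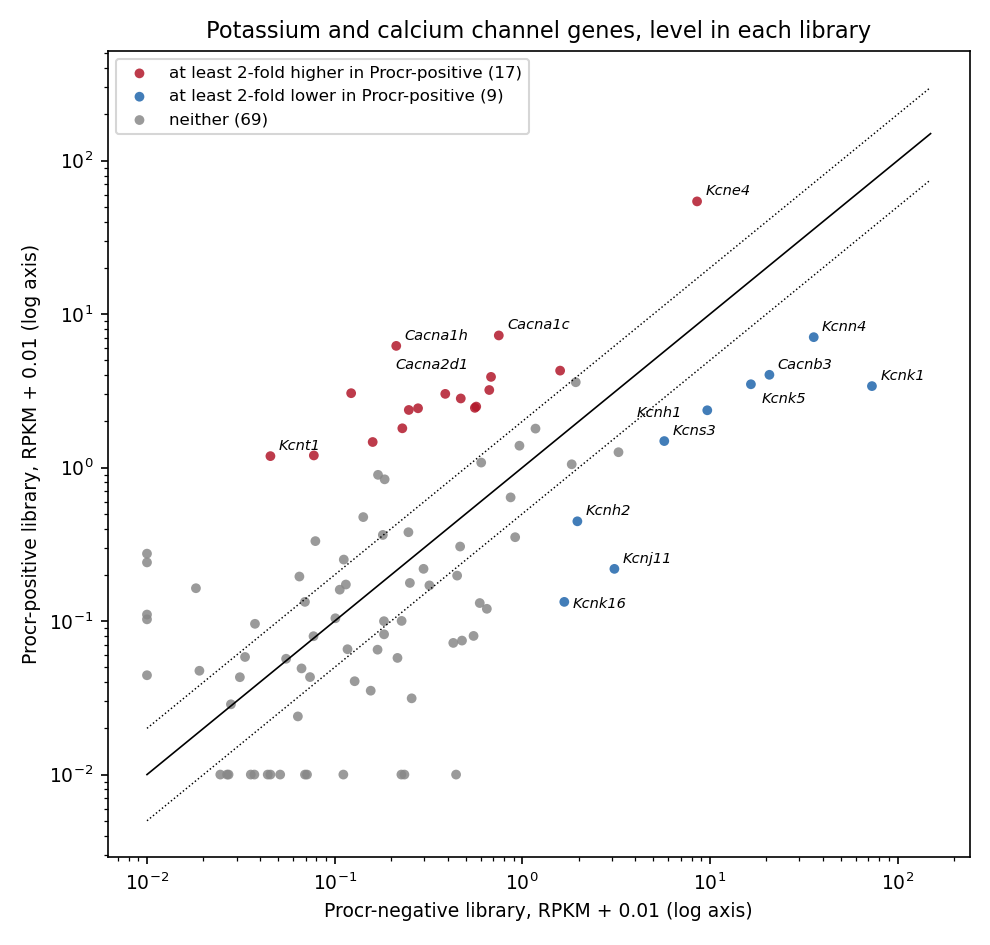
Level of each of the 95 genes in the Procr-positive library (vertical, RPKM + 0.01, log axis) against the Procr-negative library (horizontal, same scale). The solid line marks equal levels and the dotted lines 2-fold on the plotted scale, while colours mark the calls on the log2(RPKM + 1) scale, 17 higher and 9 lower. Kcne4 lies highest for the Procr-positive library and Kcnk1 farthest to the right for the Procr-negative library.

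The median log2 difference was 1.03 over the 32 members with at least 1 RPKM in a library and −0.02 over all 95 members, so it depended on which low genes were kept, and since a member can pass through its higher library alone it supports no direction. Among 9 members with at least 5 RPKM in a library, 3 were higher and 6 lower, with a median of −1.67. Of all 8906 genes past that filter, 14.4% were higher and 25.3% lower, with a median of −0.40. The median of all 12509 genes with at least 1 RPKM was −0.38. With log ratios centred on it, 18 of the 32 members were higher and 7 lower, beside 2426 (19.4%) and 1644 (13.1%) of the 12509 genes.

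The channel with the most transcript per length in Procr-positive cells was Kcne4, at 54.3 RPKM. Also among the 6 highest there were Cacna1c at 7.25, Kcnn4 at 7.07, Cacna1h at 6.20 and Cacnb3 at 4.01 RPKM. Procr-negative cells had Kcnk1 first, at 73.0 RPKM, followed by Kcnn4 at 35.8, Cacnb3 at 20.7, Kcnk5 at 16.5, Kcnh1 at 9.67 and Kcne4 at 8.53 RPKM. Kcne4, Kcnn4 and Cacnb3 were thus among the 6 highest in both libraries, in different order. Members spanned a wide range within each library, and 44 of them had fewer than 10 reads in both.

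Summed over the 73 coding potassium members, the level was 111 RPKM for Procr-positive and 175 RPKM for Procr-negative cells. Accessory subunits of voltage-gated channels made up 61.6 RPKM in the Procr-positive library, against 12.9 RPKM in the Procr-negative library. Tandem-pore-domain channels ran the other way, at 12.9 RPKM for Procr-positive and 94.1 RPKM for Procr-negative cells. A single gene gave much of the larger sum in each case. Kcne4 gave 48.8% of the potassium total in Procr-positive cells, against 4.89% in Procr-negative cells. Kcnk1 gave 3.05% in Procr-positive cells, against 41.8% in Procr-negative cells.

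**Figure D2:**
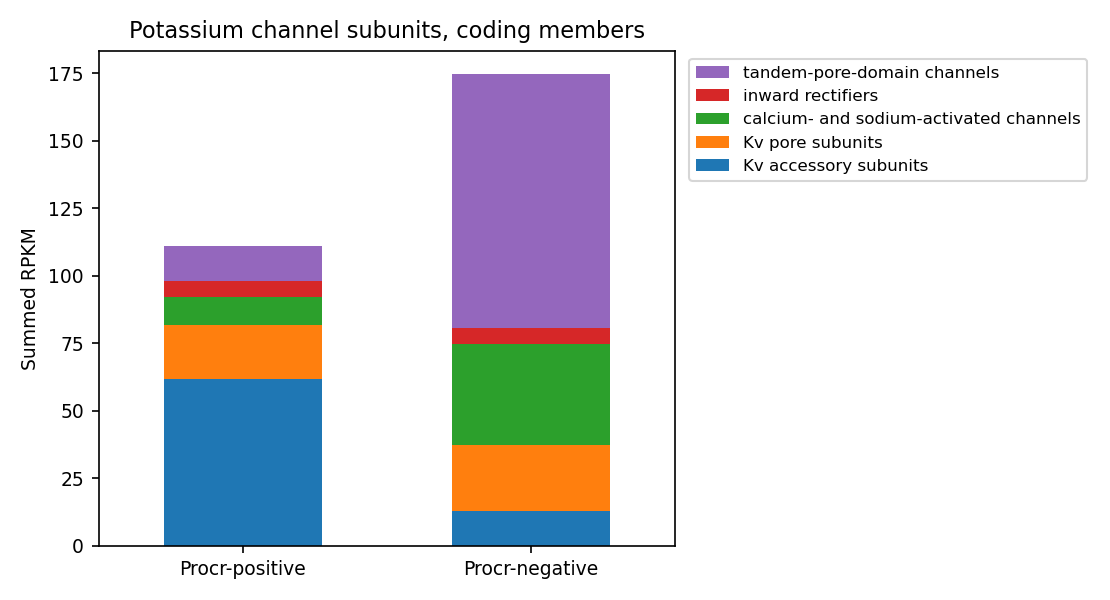
Summed RPKM (vertical) of the coding potassium channel members by subfamily, with the Procr-positive library left and the Procr-negative library right. Accessory subunits of voltage-gated channels fill 61.6 RPKM of the Procr-positive bar, and tandem-pore-domain channels fill 94.1 RPKM of the Procr-negative bar.

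Among accessory subunits of voltage-gated potassium channels, 3 of 12 members (25%) were higher in Procr-positive cells and none lower, beside 9.48% and 17.1% of all listed genes. Kcne4, a single-span subunit known to dampen currents of several voltage-gated channels, had 1244 reads (54.3 RPKM) in the Procr-positive library, against 203 reads (8.53 RPKM) in the Procr-negative library. It was thus 6.36-fold higher (5.48 to 7.41). Kcne4 is a protein-coding gene on chromosome 1, at 78816911 to 78820032 in GRCm38. Kcnab1, a cytoplasmic beta subunit that can speed channel inactivation, had 89 reads (3.19 RPKM) against 19 reads (0.657 RPKM) in Procr-negative cells, 4.86-fold higher (2.94 to 8.45). Kcne3, which keeps Kcnq1 channels open in epithelia, had 30 reads (2.44 RPKM) in Procr-positive cells, against 7 reads (0.549 RPKM) in Procr-negative cells. Its ratio of 4.45 had a counting interval of 1.91 to 11.99, which reached below 2-fold. The other 9 accessory members stayed under 1 RPKM in both libraries; the calsenilin gene Kcnip3, for example, had 17 reads in Procr-positive and 24 in Procr-negative cells.

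Of the genes called in either direction, 6 have a RefSeq start site in the GRCm38.p6 promoter table that is also the outer end of the gene. The 250 bases upstream of that start are shown for the one highest and the one lowest among these 6, Kcne4 and Kcnk5, to set a promoter of each expression pattern side by side. Capitals mark letters of any of 6 motifs searched on both strands.
Kcne4, chr1:78816661-78816910, plus strand: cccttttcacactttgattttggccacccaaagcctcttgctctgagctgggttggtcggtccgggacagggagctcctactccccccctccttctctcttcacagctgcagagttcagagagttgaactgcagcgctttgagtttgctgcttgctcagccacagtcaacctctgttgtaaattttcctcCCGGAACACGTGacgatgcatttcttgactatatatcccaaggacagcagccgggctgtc
Kcnk5, chr14:20181783-20182032, minus strand: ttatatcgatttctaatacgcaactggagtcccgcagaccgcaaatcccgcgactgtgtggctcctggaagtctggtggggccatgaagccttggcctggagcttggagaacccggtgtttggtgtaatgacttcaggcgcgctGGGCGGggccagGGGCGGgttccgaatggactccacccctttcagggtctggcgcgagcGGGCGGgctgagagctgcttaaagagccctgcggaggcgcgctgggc
The Kcne4 window held the ETS letters CCGGAA from 60 bases upstream of the start, directly followed by the E-box CACGTG from 54 bases upstream. These letters occur in 12.03% and 6.02% of 32851 promoter windows of the same length. The Kcnk5 window held the GC box GGGCGG 3 times, from 106, 94 and 47 bases upstream, and 32.7% of all windows hold it at least once. Neither window held CCAAT (33.8% of windows), TATAAA (12.4%) or the AP-1 letters TGANTCA (6.75%), none of these motifs overlapped another, and a match describes letters only. The Kcne4 window was 53.2% G and C with 7 CG pairs, and the Kcnk5 window 62.8% with 19, beside medians of 52.4% and 6 over all windows.

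Pore subunits of voltage-gated potassium channels had calls in both directions. Of 29 members, 4 (13.8%) were higher in Procr-positive cells and 3 (10.3%) lower, beside 9.48% and 17.1% of all listed genes. Kcnq5, known in vascular smooth muscle, had 94 reads (1.46 RPKM) in Procr-positive cells, against 10 reads (0.150 RPKM) in Procr-negative cells, 9.75-fold higher (5.07 to 21.0). Kcnq1, a channel of heart muscle and epithelia, passed no threshold, with 101 reads (3.59 RPKM) in Procr-positive and 56 reads (1.92 RPKM) in Procr-negative cells, a ratio of 1.87 (1.34 to 2.64). The fast delayed rectifier gene Kcnc2 had 68 reads (1.19 RPKM) in Procr-positive cells, against 4 reads (0.0675 RPKM) in Procr-negative cells, 17.6-fold higher (6.58 to 66.6).

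The 3 lower pore genes were 2 members of the ether-a-go-go group and a silent subunit. Kcnh1, the ether-a-go-go channel, had 155 reads (2.35 RPKM) in Procr-positive cells, against 661 reads (9.67 RPKM) in Procr-negative cells, 4.11-fold lower (3.45 to 4.93). Kcnh2, its relative known for cardiac repolarisation, had 17 reads (0.437 RPKM) against 79 reads (1.96 RPKM) in Procr-negative cells, 4.48-fold lower (2.63 to 8.07). Kcns3, which forms no channel alone and modifies other voltage-gated pores, had 40 reads (1.48 RPKM) against 160 reads (5.70 RPKM) in Procr-negative cells, 3.86-fold lower (2.71 to 5.60). The call of Kcnh2 was lost with log ratios centred on the median of all genes (−0.66) and with upper-quartile scaling (−0.86), against −1.04 on the deposited scale.

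Calcium- and sodium-activated potassium channels held 1 higher and 1 lower gene of 11 (9.09% each), beside 9.48% higher and 17.1% lower among all listed genes. Kcnn4, the intermediate-conductance calcium-activated channel of endothelium, epithelia and blood cells, had 133 reads (7.07 RPKM) in Procr-positive cells, against 698 reads (35.8 RPKM) in Procr-negative cells. It was thus 5.06-fold lower (4.20 to 6.14). In Procr-positive cells all 15 pan-endothelial and 7 of 10 leukocyte markers were higher, and 13 of 15 epithelial markers were lower. The part of these cell types in the level of Kcnn4 was not tested. Kcnn3, the small-conductance channel that shares the endothelial role of Kcnn4, was near the limit of the data, with 13 reads (0.185 RPKM) in Procr-positive and 4 reads (0.0549 RPKM) in Procr-negative cells. The sodium-activated channel gene Kcnt1 had 64 reads (1.18 RPKM) in Procr-positive cells, against 2 reads (0.0355 RPKM) in Procr-negative cells, a ratio of 33.2 with a wide interval (8.82 to 280.02). Genes of the large-conductance calcium-activated channel were low in both libraries. The pore gene Kcnma1 had 4 reads in Procr-positive and 32 in Procr-negative cells, 7.71-fold lower (2.73 to 30.0). Kcnmb1, its beta subunit known from smooth muscle, had 32 reads in Procr-positive and 7 in Procr-negative cells, 4.74-fold higher (2.06 to 12.7). Both stayed under 1 RPKM and under the call threshold. Lrrc26, a leucine-rich gamma subunit of the same channel known from secretory epithelia, had 3 reads (0.270 RPKM) in Procr-positive and 60 reads (5.20 RPKM) in Procr-negative cells, 19.3-fold lower (6.29 to 96.1).

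Inward rectifiers also held 1 higher and 1 lower gene of 10 (10% each), beside 9.48% higher and 17.1% lower among all listed genes. Kcnj15 had 122 reads (2.43 RPKM) in Procr-positive cells, against 14 reads (0.268 RPKM) in Procr-negative cells, 9.04-fold higher (5.19 to 17.0). Kcnj2, the classical strong rectifier of endothelium and muscle, passed no threshold, with 90 reads (1.79 RPKM) in Procr-positive and 61 reads (1.17 RPKM) in Procr-negative cells, a ratio of 1.53 (1.09 to 2.15). Its relative Kcnj14 had 26 reads (1.07 RPKM) in Procr-positive and 15 (0.594 RPKM) in Procr-negative cells, with an interval that spanned 1 (0.918 to 3.65). Kcnj11, the pore of the ATP-sensitive channel in pancreatic beta cells and neurons, had 6 reads (0.209 RPKM) in Procr-positive cells, against 92 reads (3.09 RPKM) in Procr-negative cells, 14.8-fold lower (6.54 to 41.3).

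ATP-sensitive channels join an inward rectifier pore with a sulfonylurea receptor, and the genes of both known pairs lie side by side in the genome. The pair Kcnj11 and Abcc8 lies on chromosome 7, 3.57 kb apart. Abcc8 had 48 reads (1.05 RPKM) in Procr-positive cells, against 619 reads (13.1 RPKM) in Procr-negative cells, 12.4-fold lower (9.26 to 17.0), and so had the same direction as Kcnj11. The vascular pair Kcnj8 and Abcc9 lies on chromosome 6, 16.2 kb apart, and is known from pericytes and smooth muscle. Kcnj8, which is outside the 95 genes, had 622 reads (30.8 RPKM) in Procr-positive and 69 reads (3.30 RPKM) in Procr-negative cells, 9.35-fold higher (7.28 to 12.2). Abcc9 had 858 reads (12.3 RPKM) against 191 reads (2.65 RPKM) in Procr-negative cells, 4.66-fold higher (3.98 to 5.48). The 2 pairs thus had opposite differences, and in each pair both genes had the same direction.

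**Figure D3:**
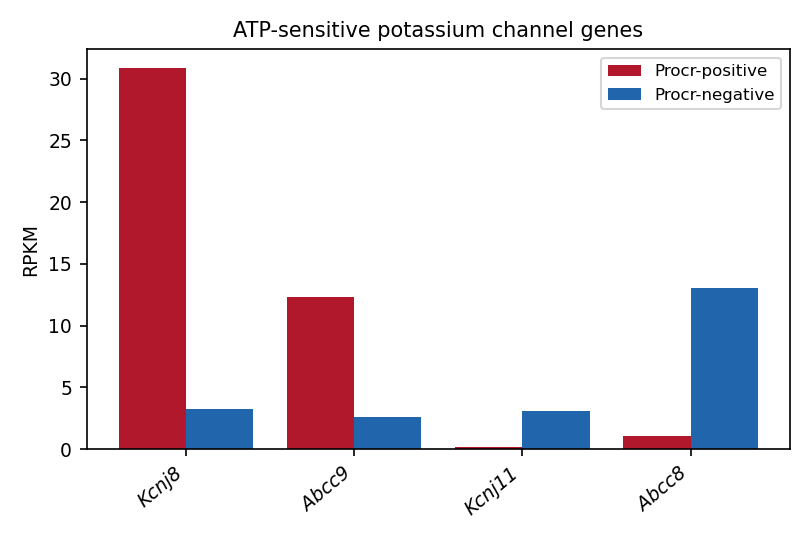
RPKM (vertical) of the genes of the ATP-sensitive potassium channel, with the Procr-positive library (red) left of the Procr-negative library (blue) for each gene. Kcnj8 and Abcc9 are higher in the Procr-positive library, at 30.8 and 12.3 RPKM, and Kcnj11 and Abcc8 are higher in the Procr-negative library, at 3.09 and 13.1 RPKM.

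Tandem-pore-domain channels, which carry background potassium current, included the gene that differed most. Of 11 members, 2 (18.2%) were higher and 3 (27.3%) lower in Procr-positive cells, beside 9.48% and 17.1% of all listed genes. Kcnk1, a weakly conducting background channel found widely in epithelia, had 72 reads (3.39 RPKM) in Procr-positive cells, against 1611 reads (73.0 RPKM) in Procr-negative cells. It was 21.6-fold lower (17.0 to 27.7), and its log2 difference of −4.08 was the largest in size among the 95 genes. Kcnk1 lies on chromosome 8, at 125993655 to 126030685. Kcnk5, an alkali-sensitive channel known from kidney epithelium, had 108 reads (3.48 RPKM) in Procr-positive cells, against 532 reads (16.5 RPKM) in Procr-negative cells, 4.75-fold lower (3.85 to 5.90). Kcnk16, known from pancreatic islets, rested on 1 read in Procr-positive and 14 reads (1.67 RPKM) in Procr-negative cells, 13.5-fold lower with a very wide interval (2.05 to 571), and its call was lost with centring on the median of all genes (−0.87, against −1.25 on the deposited scale). It lies 79.6 kb from Kcnk5 on chromosome 14.

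Kcnk6 and Kcnk3 had the opposite direction. Kcnk6, a relative of Kcnk1 known from vascular muscle and lysosomes, had 106 reads (2.81 RPKM) in Procr-positive cells, against 18 reads (0.460 RPKM) in Procr-negative cells, 6.11-fold higher (3.68 to 10.7). Kcnk3, an acid-sensitive channel of pulmonary artery muscle, had 63 reads (1.79 RPKM) against 8 reads (0.220 RPKM) in Procr-negative cells, 8.17-fold higher (3.90 to 19.7). For Procr-positive cells, Kcnk5, Kcnk1 and Kcnk6 shared the subfamily nearly evenly, at 27.0%, 26.3% and 21.8% of its summed RPKM. For Procr-negative cells, Kcnk1 alone made up 77.6% of it. Kcnk7, a member without known current, had 11 reads (1.04 RPKM) in Procr-positive and 20 reads (1.82 RPKM) in Procr-negative cells, with an interval that spanned 1.

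**Figure D4:**
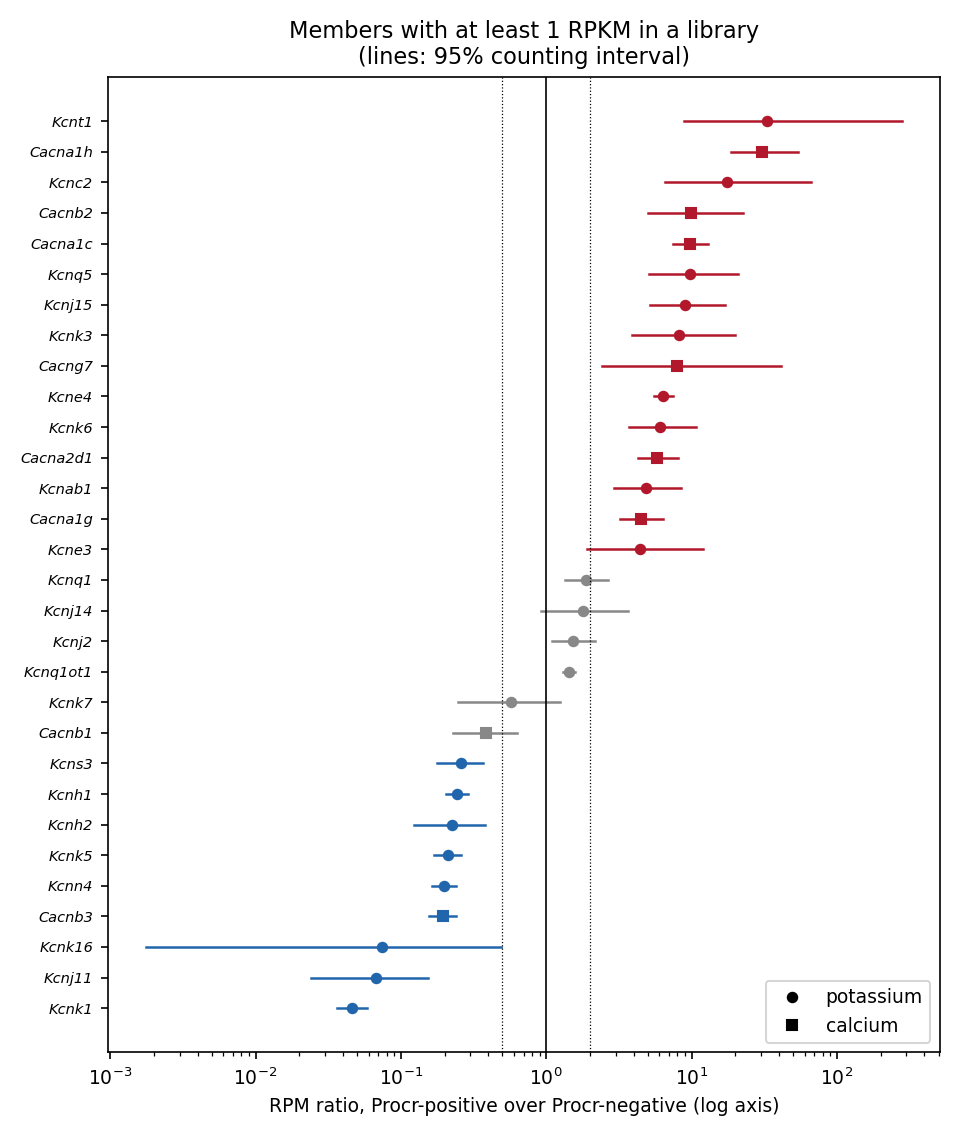
Ratio of reads per M (horizontal, Procr-positive over Procr-negative, log axis) with its 95% counting interval for 30 members with at least 1 RPKM in a library. Circles are potassium and squares calcium channel genes, red and blue mark genes called higher and lower, grey marks neither, the solid line marks 1 and the dotted lines 2-fold. The ratios run to 33.2 for Kcnt1 at the top, and Kcnk1 has the lowest, at 21.6-fold lower.

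Calcium channel genes were led by pore subunits in Procr-positive cells and by a beta subunit in Procr-negative cells. Of 21 members, 6 (28.6%) were higher and 1 (4.76%) lower, beside 9.48% and 17.1% of all listed genes. The summed level was similar in both libraries, at 31.9 RPKM in Procr-positive and 28.6 RPKM in Procr-negative cells. Pore subunits summed to 16.7 RPKM in Procr-positive and 2.06 RPKM in Procr-negative cells, whereas beta subunits summed to 7.79 RPKM in Procr-positive and 24.3 RPKM in Procr-negative cells. Of 10 pore genes, 3 (30%) were higher and none lower, and no pore gene reached 1 RPKM in the Procr-negative library.

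Cacna1c, the L-type pore of heart and vascular smooth muscle, had 567 reads (7.25 RPKM) in Procr-positive cells, against 60 reads (0.740 RPKM) in Procr-negative cells, 9.80-fold higher (7.50 to 13.0). Cacna1h, a T-type pore that opens at low voltage, had 471 reads (6.20 RPKM) against 16 reads (0.203 RPKM) in Procr-negative cells, 30.5-fold higher (18.6 to 53.9). The log2 difference of Cacna1h, 2.58, was the highest of the 95 genes. The other T-type gene found above 1 RPKM, Cacna1g, had 189 reads (2.49 RPKM) in Procr-positive and 44 reads (0.558 RPKM) in Procr-negative cells, 4.46-fold higher (3.20 to 6.34). The pore genes Cacna1a, with 27 reads in Procr-positive and 18 in Procr-negative cells, and Cacna1d, with 14 reads in Procr-positive and 21 in Procr-negative cells, had intervals that spanned 1. Cacna1e of the R-type channel had 18 reads in Procr-positive and 1 in Procr-negative cells, a ratio of 18.7 (2.95 to 778). Cacna1b, Cacna1f and Cacna1s had no read in the Procr-positive and 1 read each in the Procr-negative library, while Cacna1i had 3 reads in Procr-positive and 2 in Procr-negative cells.

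Beta subunits, which bring the pore to the cell surface and tune its gating, divided by gene. Cacnb3 had 105 reads (4.01 RPKM) in Procr-positive cells, against 563 reads (20.7 RPKM) in Procr-negative cells, 5.17-fold lower (4.19 to 6.43). Cacnb2, the main beta subunit of heart, had 86 reads (2.36 RPKM) against 9 reads (0.239 RPKM) in Procr-negative cells, 9.91-fold higher (4.99 to 22.4). Cacnb1, known from skeletal muscle, had 23 reads (1.25 RPKM) in Procr-positive and 62 reads (3.25 RPKM) in Procr-negative cells, 2.60-fold lower in reads (1.59 to 4.39) but short of the threshold at a log2 difference of −0.92. Within the beta subunits, Cacnb3 made up 51.5% of the summed RPKM in Procr-positive cells, against 85.2% in Procr-negative cells. Cacnb2 made up 30.3% in Procr-positive cells, against 0.980% in Procr-negative cells.

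Of 4 alpha2delta genes, Cacna2d1 was called. This subunit, which raises surface levels of the pore and binds gabapentin, had 268 reads (3.89 RPKM) in Procr-positive cells, against 48 reads (0.672 RPKM) in Procr-negative cells, 5.79-fold higher (4.25 to 8.05). Cacna2d3 had no read in Procr-positive and 8 reads in Procr-negative cells, which is 2.57-fold lower against a floor of 3 reads per library. Its counting interval began at 1.65-fold lower. Cacng7, of a gamma group known for binding glutamate receptors in brain, rested on 23 reads (3.01 RPKM) in Procr-positive and 3 reads (0.379 RPKM) in Procr-negative cells, a ratio of 7.95 (2.40 to 41.4).

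**Figure D5:**
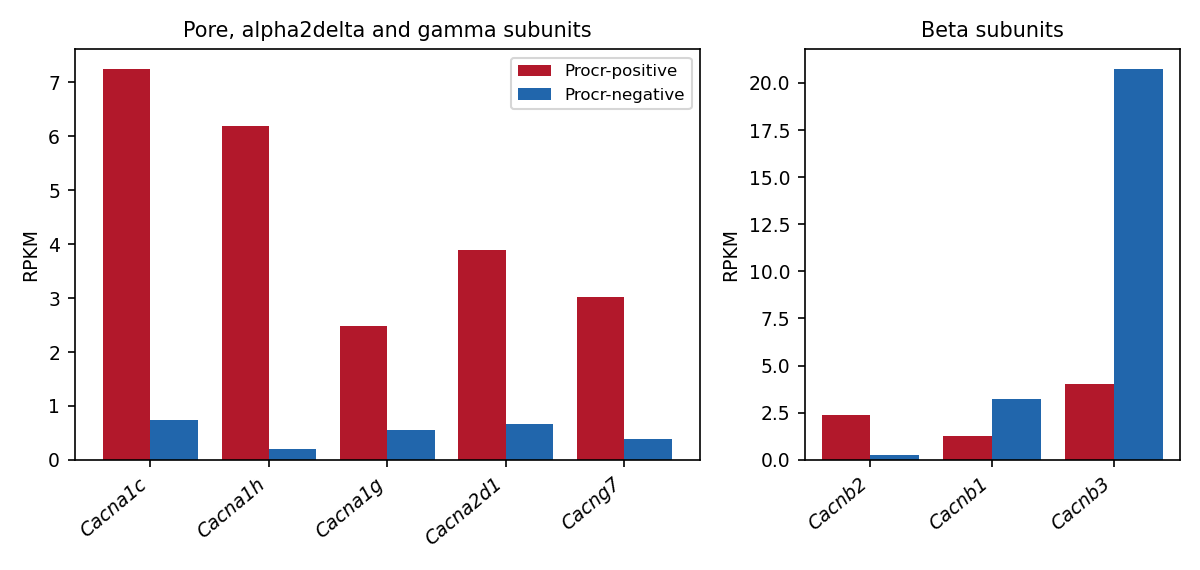
RPKM (vertical, a separate axis for each panel) of the 8 calcium channel genes with at least 1 RPKM in a library, with the Procr-positive library (red) left of the Procr-negative library (blue) for each gene. All pore, alpha2delta and gamma genes shown are higher in the Procr-positive library, while Cacnb3 reaches 20.7 RPKM in the Procr-negative library.

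Most of the remaining members were barely detected. Of the 63 members under 1 RPKM in both libraries, 19 had at least 10 reads in a library, and their highest levels were 0.887 RPKM for Kcnd1 in Procr-positive cells and 0.907 RPKM for Kcnab3 in Procr-negative cells. Kcnd1, a transient A-type channel, had 16 reads in Procr-positive and 3 in Procr-negative cells, a ratio of 5.53 (1.58 to 29.6). Kcnf1, a silent subunit, had no read in Procr-positive and 20 reads in Procr-negative cells, which is 6.43-fold lower against the floor of 3 reads. Its counting interval began at 4.76-fold lower. Across the 95 members, 5 had reads in the Procr-positive library only, with at most 6 reads, and 14 in the Procr-negative library only, with at most 20. At these depths 3 reads on a gene of 1 kb correspond to 0.325 RPKM for Procr-positive and 0.314 RPKM for Procr-negative cells, and lower levels were not detectable.

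Kcnq1ot1 carries a channel name but is a non-coding RNA, transcribed antisense within Kcnq1 and known for imprinting. It had 1061 reads (1.38 RPKM) in Procr-positive and 763 reads (0.956 RPKM) in Procr-negative cells, a ratio of 1.44 (1.31 to 1.59). The authors' coverage column gave only 10.3% of its length covered in the Procr-positive and 10.8% in the Procr-negative library. Reads of 49 bases spread evenly would have covered 46.4% in the Procr-positive and 36.1% in the Procr-negative library, so the reads lay on a smaller part of the transcript than an even spread would give.

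Genes grouped by the tissue where the channels are best known, by lists drawn up with earlier results of these data known, gave the following counts, to be read beside the 9.48% higher and 17.1% lower among all listed genes. Of 13 channel genes known from vascular smooth muscle and pericytes, 9 (69.2%) were higher and 1 (7.69%), Cacnb3, was lower in Procr-positive cells, and they include Kcnj8 and Abcc9. Beside this count stand the pericyte and smooth muscle markers, at 1627 RPKM in Procr-positive and 201 RPKM in Procr-negative cells. Of 11 potassium channel genes grouped as those of transporting epithelia, 3 were higher (Kcne3, Kcnk6 and Kcnj15), 3 were lower (Kcnk1, Kcnk5 and Kcnn4) and Kcnj16 was listed in neither library. Of the 10 listed, 30% were thus higher and 30% lower. Beside these shares stand epithelial markers at 921 RPKM in Procr-positive and 19585 RPKM in Procr-negative cells. The part of either marker group was not tested. Counts depend on how genes were grouped. Kcnk6, described above for vascular muscle and lysosomes, was counted with the epithelial genes. Kcnk3, described above for pulmonary artery muscle, was in neither list. Of 5 genes of endothelial hyperpolarisation, Trpv4, a calcium-permeable channel, was 4.85-fold higher (3.92 to 6.05; 16.2 against 3.35 RPKM in Procr-negative cells), Kcnn4 was lower, and Kcnj2, Kcnn3 and Kcnma1 passed no threshold.

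Partners outside the Kcn and Cacn names also divided. Of 10 partner genes of potassium channels, 1, Abcc9, was higher, 4 were lower (Abcc8, Lrrc26, Amigo1 and Akap9), and Lrrc38 was listed in neither library. Of those listed, 11.1% were thus higher and 44.4% lower. Of 12 regulators of calcium channels, 6 (50%) were higher and 2 (16.7%) lower. Among all listed genes the shares were 9.48% higher and 17.1% lower. Rrad, a small GTPase that inhibits L-type channels, had 1711 reads (118 RPKM) in Procr-positive and 236 reads (15.6 RPKM) in Procr-negative cells, 7.52-fold higher (6.56 to 8.65). Stac, an adaptor that binds the L-type pore, had 262 reads (11.3 RPKM) against 20 reads (0.831 RPKM) in Procr-negative cells, 13.6-fold higher (8.62 to 22.6).

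The wider ion transport lists held genes of the same kind with opposite differences. For several lists the share called was near that of all listed genes, 9.48% higher and 17.1% lower. Among 11 genes of calcium release and store-operated entry, 2 (18.2%) were higher and 1 (9.09%) lower. The release channel gene Itpr1 was 4.03-fold higher (49.1 against 12.2 RPKM in Procr-negative cells) and its relative Itpr3 was 5.42-fold lower (7.75 against 42.0 RPKM). Of 13 calcium pumps and exchangers, 2 (15.4%) were higher and 3 (23.1%) lower. The plasma membrane pump gene Atp2b4 was 9.33-fold higher and the secretory pathway pump gene Atp2c2 37.8-fold lower. Of 29 TRP and Piezo genes 3 were listed in neither library. Among the 26 listed 4 (15.4%) were higher and 4 (15.4%) lower, led by Trpv2 (7.44-fold higher) and Trpv4. Of 19 voltage-gated sodium, HCN and NALCN genes 3 were listed in neither library, and among the 16 listed 3 (18.8%) were higher and none lower. The pacemaker gene Hcn4 was 33.2-fold higher (15.8 to 83.5), with 224 reads against 7 in Procr-negative cells. Of the 3 epithelial sodium channel genes, 2 (66.7%) were lower, Scnn1a by 14.3-fold and Scnn1b by 5.80-fold, and none higher. Of 23 chloride channel genes, 1 (4.35%) was higher and 4 (17.4%) lower. The higher one was the volume-regulated channel gene Lrrc8c (12.1-fold, 73.0 against 6.06 RPKM in Procr-negative cells). Clca2 led the lower ones (24.8-fold lower, 6.47 against 161 RPKM).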

How the data were processed

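Total RNA was sequenced as single reads. Unique alignments to mm10 were used, per the labels' protocols. The sources used here give no aligner, counter, annotation or strand setting. The authors deposited whole read counts per gene, RPKM values, gene lengths and the percent of each gene's length covered, per the file headers. Counts summed to the header totals, RPKM equalled reads per kb and M reads, and a gene not listed in a library was taken as 0 reads there. No column of another sample was used. Unique mapping can lower genes with near-identical copies. In GENCODE exons of GRCm38, at most 8.01% of the bases of a called member (Kcnk1) overlapped another gene.

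Members, lists and motifs were chosen with earlier results of these data known. Log2 ratios used RPKM + 1, and a call needed 2-fold. No test across conditions was possible with 1 library per group. A library without reads was set to 3 reads for fold values. Intervals cover counting error only, and they treat reads as independent, which PCR copies are not. All 95 gene identifiers matched RefSeq GRCm38.p6, which gave coordinates and promoters (71 members). Genes given in full were, of 31 members with at least 20 reads and 1 RPKM, the 12 highest and 12 lowest by log2 ratio, the 6 highest by RPKM in each library and the one with the most reads in each subfamily (25 genes); some of these, and a gene of an outside list, are counted but not reported here. Other members were named after their values were seen, to complete subfamilies. Of each list outside the members, the 2 genes with the largest log2 ratio in size were given with values. Alternatives were a pseudocount of 0.1 or 0.5, all listed genes, genes from 5 RPKM, log ratios centred on the all-gene median, upper-quartile scaling, TPM, reads per M with a prior of 1 read, and calls by counting interval among genes with 1 RPKM. Calculations used Python 3.11.15, pandas 2.3.3, NumPy 2.4.6 and SciPy 1.17.1, and were tested on simulated data.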

Additional observations from a re-analysis of the deposited data

How the results depend on the processing

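The 17 members called higher kept a 2-fold difference under every scaling and pseudocount tried, and 7 of the 9 called lower did. The number higher ranged from 15, by counting interval with the filter of 1 RPKM, to 18, with centring, apart from 3 with a filter of 5 RPKM, which keeps 9 members. The number lower ranged from 6 to 10. The median log2 difference of the members that pass the filter moved with nearly every setting and changed sign with the filter. It was 1.67 and 1.34 with pseudocounts of 0.1 and 0.5, -0.0239 without a filter, −1.67 at 5 RPKM, 1.41 with centring, 1.17 with upper-quartile scaling, 1.41 as TPM and 1.71 as reads per M with a prior of 1 read. The filters differ by construction in which members they keep. Kcnh2 (−0.66) and Kcnk16 (−0.87) fell short of 2-fold with centring. Cacnb1 passed 2-fold under both smaller pseudocounts, as TPM and as reads per M (−1.08 to −1.34). No paired analysis was possible because each group has 1 library. Depth limits the 44 members with fewer than 10 reads in both libraries.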
